A study of Mus musculus with 2 samples.

Results

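The isolated moderate WT-higher H3K27ac sites are 573 of the 1765 places where this histone mark had more reads in wild-type (WT) than in Dicer knockout (KO) mouse mesenchymal stromal cells, and 573 of the 21418 events in the 6 lists of the series. They were chosen by 3 conditions. The WT reads had to be less than 6 times the scaled KO reads (a WT over KO ratio), so that KO kept more than 16.7% of the WT level. No other WT-higher H3K27ac event could lie within 5 kb, and no event of the 5 remaining lists (H3K27ac higher in KO, H3K4me3 and H3K36me3 in either direction) within 10 kb. Chromosome X was left out. Of the 1765 events, 1330 were under the ratio limit, 760 of these had no neighbour in their own list, and 585 had none in any list, of which 12 were on chromosome X. The KO and WT reads at these sites therefore served to choose them, and they are given as a description, without a test.

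The KO cells were a monoclonal immortalized line that lacks Dicer, and the WT cells a monoclonal immortalized line that carries it. Both are called fibroblasts in the sample titles, were grown in Alpha-MEM with serum and were fixed with 1% formaldehyde, and H3K27ac was pulled down from both with the same antibody. The labels give 1 H3K27ac sample per genotype, and the lists give 1 value per genotype with replicates pooled, so no replicate error exists and the effect of genotype cannot be told apart from that of the clone. The total reads of each library are unknown, so the reads at a site set its precision, and the 95% intervals below cover counting error alone.

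Dicer is the ribonuclease that cuts microRNA precursors into mature microRNAs, which silence messenger RNAs in the cytoplasm. Acetylation of lysine 27 on histone H3 is placed by the acetyltransferases p300 and CBP at active enhancers and active promoters. H3K4me3 marks promoters and H3K36me3 the bodies of transcribed genes. A site with H3K27ac and far from H3K4me3 is the usual picture of a distal enhancer. The distance condition here concerns only events that differed between genotypes. A promoter whose H3K4me3 was alike in KO and WT would not be in any list, so the lists do not say which of the 573 sites are enhancers and which are promoters. Positions are those of the files, in mouse build mm9. Genes were not assigned to the sites and no DNA sequence was read there, since no reference of that build was used here.

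Across the 573 sites, KO had a median of 86 scaled reads (quartiles 64.5 and 115), against 283 reads in WT (237 and 331). The range was 24.1 to 299 scaled reads in KO and 132 to 758.5 reads in WT. At the median site the KO level was 31.3% of the WT level (quartiles 22.4 and 38.8). The KO level was under 50% of WT at 545 of the 573 sites (95.1%), where 95.5% of all 1765 WT-higher events were, and that share follows from how the sites were chosen. It lay from 15% to 20% at 84 sites, from 20% to 25% at 91, from 25% to 30% at 86, from 30% to 35% at 107 and from 35% to 40% at 81. The counts thinned out above that, with 68 sites from 40% to 45% and 28 from 45% to 50%. The interval of the KO level stayed under 100% at each of the 573 sites, as it did for all of the 1765 events (100%). To be listed, an event had to pass the authors' threshold on WT against KO reads, so this too follows from the list. The highest upper limit among the 573 sites was 88.4%. A typical interval was 15.6 percentage points wide.

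**Figure D1:**
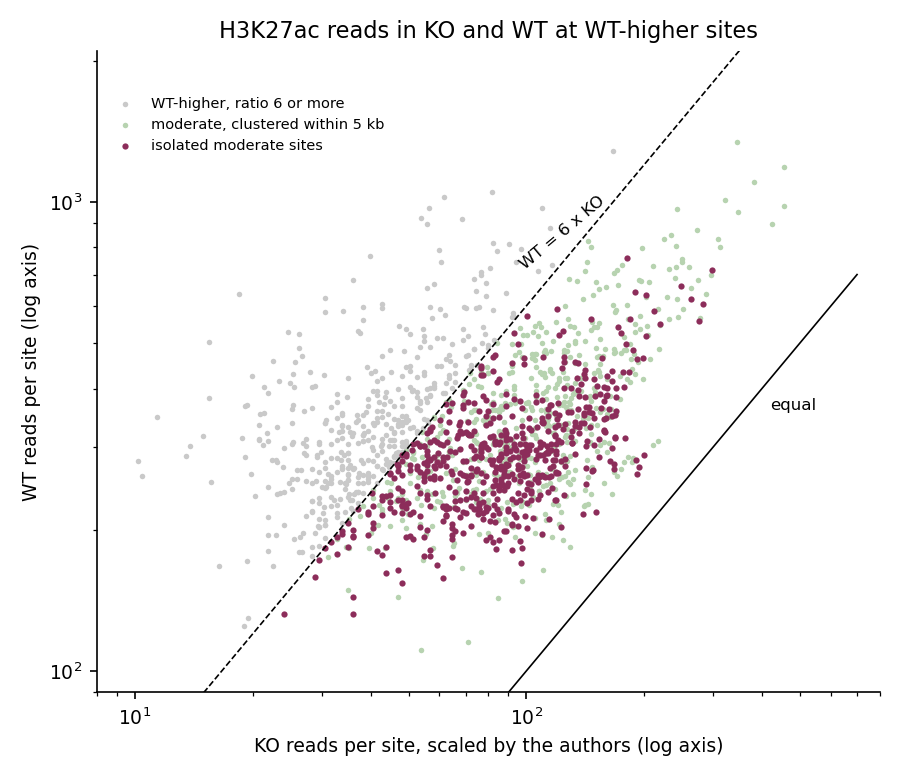
Scaled KO reads (horizontal) and WT reads (vertical) at WT-higher H3K27ac events, both on log axes, with 1 point per event. The 573 isolated moderate sites (purple) lie between the line of equal reads and the dashed line where WT is 6 times KO, with medians of 86 scaled reads in KO and 283 in WT, while strong events (grey) lie left of the dashed line and clustered moderate events (green) reach higher read numbers. Moderate events that stood alone in their list but beside another list, or on chromosome X, are not drawn.

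Clustered and strong WT-higher events differed from the sites in their read numbers. Together these classes also hold events on chromosome X, which the 573 sites do not. The 570 events of the same ratio range that had a neighbour within 5 kb had a median of 106 scaled reads in KO and 333 reads in WT, both more than at the 573 sites, with a like KO level of 29.9% of WT (quartiles 23.3 and 38.5). The 435 strong events, with a ratio of 6 or more, had 38.3 scaled reads in KO and 331 in WT. Moderate events that stood alone in their list but had an event of another list within 10 kb numbered 175, of which 13 were on chromosome X. The 162 on autosomes had medians of 88.6 scaled reads in KO and 285 reads in WT, and a KO level of 31.4% of WT (quartiles 23.5 and 37.4). These values were close to those of the 573 sites. They had an H3K4me3 event higher in WT at a median distance of 0.456 kb. The 2818 sites that meet the same conditions in the opposite direction, higher in KO, had medians of 336 reads for KO and 120 scaled reads for WT. Those reads are on the scale of their own list, which differs from that of the WT-higher list.

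Among the 573 chosen sites, the KO level varied little with the height of the site. At the 192 sites with fewest WT reads (132 to 258), the KO level had a median of 31.9% of WT, at the 190 in the middle 30.4%, and at the 191 with most WT reads (309 to 758.5) 31.5%. Spearman's rho between the KO level and the WT reads was -0.03 over the 573 sites, which share their libraries and their scale. The ratio limit cut the KO level from below, and the authors' threshold cut high KO levels where reads were few. WT reads are also the denominator of the KO level, so this rho is a description of the chosen sites.

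The files also hold a column, with 1 value per chromosome and genotype, that is called expected reads here after its heading. No source used here gives its definition, and the values below rest on that reading. WT reads were at a median of 1.54 times the WT expected reads (quartiles 1.36 and 1.84). An event had to exceed that column's value to pass the authors' threshold, as the next paragraph shows. WT reads above it were therefore fixed by the list. KO reads, returned to their unscaled number, were at 0.41 times the KO expected reads (0.30 and 0.56) and lay under them at 560 of the 573 sites (97.7%), where 95.9% of all WT-higher events did. The KO level had served to choose the sites, so nothing is read from that share. The remaining 13 sites had KO reads at or above the expected reads and were tall in both genotypes, with medians of 191 scaled reads in KO and 585 in WT. Among them, the site at 115401710 on chromosome 3 had 299 scaled reads in KO and 715 in WT, a KO level of 41.8% (36.2 to 48.1). The site at 87307377 on chromosome 16 had 283.5 scaled reads in KO and 606.7 in WT (46.7%, 40.2 to 54.1). That at 63810578 on chromosome 4 had 249 scaled reads in KO and 662 in WT (37.6%, 32.3 to 43.8).

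The −log10 q by which the authors ranked the events followed the genotype difference at only part of the sites. The deposited p values could be recomputed as a one-sided binomial p of WT against scaled KO reads and as a Poisson p of WT reads over the expected reads (Pearson's r of 1.00 for both across the WT list). The q values were in the order of whichever p was weaker (Spearman's rho of 1 over the 1765 events). For 438 of the 573 sites (76.4%) the weaker p was the Poisson p, as it was for 87.4% of the 435 strong events. The rank of those sites thus follows the WT reads over that column's value. The 438 sites had a median of 77.25 scaled reads in KO and 271 in WT, a KO level of 28.8%. The other 135, ranked by the comparison with KO, had 134.5 scaled reads in KO and 357 in WT, a KO level of 39.0%. A higher KO level weakens the binomial p, so this split itself sets the KO levels of the groups apart. The median −log10 q of the 573 sites was 9.67 (quartiles 4.95 and 18.8), and the authors' threshold was 2.

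The leading sites by −log10 q combined many WT reads with a low KO level, which a ranking by the weaker p favours. At 24261209 on chromosome 2, KO had 181 scaled reads and WT 758.5, the most WT reads of any of the sites, which gave a KO level of 23.9% (20.1 to 28.4). At 136364195 on chromosome 4, 101 scaled reads in KO stood against 571 in WT, a KO level of 17.6% (14.0 to 22.0). The site at 102175243 on chromosome 14 had 95.1 scaled reads in KO and 497 in WT (19.1%, 15.1 to 24.1). On chromosome 3 the site at 143918850 had 82 scaled reads in KO and 467 in WT (17.6%, 13.6 to 22.5). The site at 44629642 on chromosome 17 had 121 scaled reads in KO and 521 in WT (23.2%, 18.8 to 28.6). At 98360426 on chromosome 6 there were 91.9 scaled reads in KO and 454 in WT (20.2%, 15.8 to 25.6). Of the 10 sites with the largest −log10 q, 3 more belonged to a single stretch of chromosome 11 that is described below. The last of the 10, at 20170730 on chromosome 7, stood 15335 kb from the next WT-higher event. There KO had 82 scaled reads and WT 436 (18.8%, 14.5 to 24.1).

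Other tall sites kept more of the mark in KO. The site at 69173263 on chromosome 9 had 189 scaled reads in KO and 641 in WT, a KO level of 29.5% (24.8 to 35.0). At 37522476 on chromosome 13, KO had 202 scaled reads and WT 634 (31.9%, 26.9 to 37.6).

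Among sites with at least 200 WT reads, the KO level was lowest at 53237130 on chromosome 18, with 48.1 scaled reads in KO and 288 in WT (16.7%, 11.9 to 23.0). The next were at 33633410 on chromosome 8 (62.3 scaled reads in KO and 371 in WT, 16.8%) and at 35531074 on chromosome 7 (37.2 in KO and 221 in WT, 16.8%). Then came 57864112 on chromosome 16 (40.3 in KO and 239 in WT, 16.8%), followed by 31944237 on chromosome 11 (51.4 in KO and 304 in WT, 16.9%). At the other end, the site at 45967390 on chromosome 14 had 191 scaled reads in KO and 263 in WT, a KO level of 72.8% (59.8 to 88.4). The site at 163983391 on chromosome 1 had 194 scaled reads in KO and 272.5 in WT (71.1%, 58.5 to 86.3). At 38982598 on chromosome 10 there were 200.1 scaled reads in KO and 289 in WT (69.3%, 57.2 to 83.6). The site at 51290316 on chromosome 6 kept 69.2% of the WT level (55.5 to 86.1). At 124560086 on chromosome 8 the KO level was 67.5% (55.5 to 81.8). Sites so close to equality were few: 28 of the 573 had a KO level of 50% or more.

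The limit of 6 drew no line in the data. Just inside it, the WT over KO ratio was 5.99 at the site of chromosome 18 with the lowest KO level, 5.98 at 149812231 on chromosome 7 and 5.96 at the site of chromosome 8. Just outside it were isolated events whose ratio was 6.06 (100103100 on chromosome 7), 6.07 (69362856 on chromosome 14) and 6.08 (47338365 on chromosome 11). The KO level at the event with a ratio of 6.06 was 16.5% (11.8 to 22.6), an interval that covers the limit. In all, 167 isolated events lay at or over the limit. By distance, the site nearest to another event of its own list was at 111551446 on chromosome 8 (just over 5 kb) and the first event left out was at 111874064 on chromosome 6 (4.96 kb). The site nearest to another list was at 24411714 on chromosome 2, 10.3 kb from an H3K36me3 event higher in WT, and the first left out was at 29346114 on chromosome 14, 9.99 kb from such an event.

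**Figure D2:**
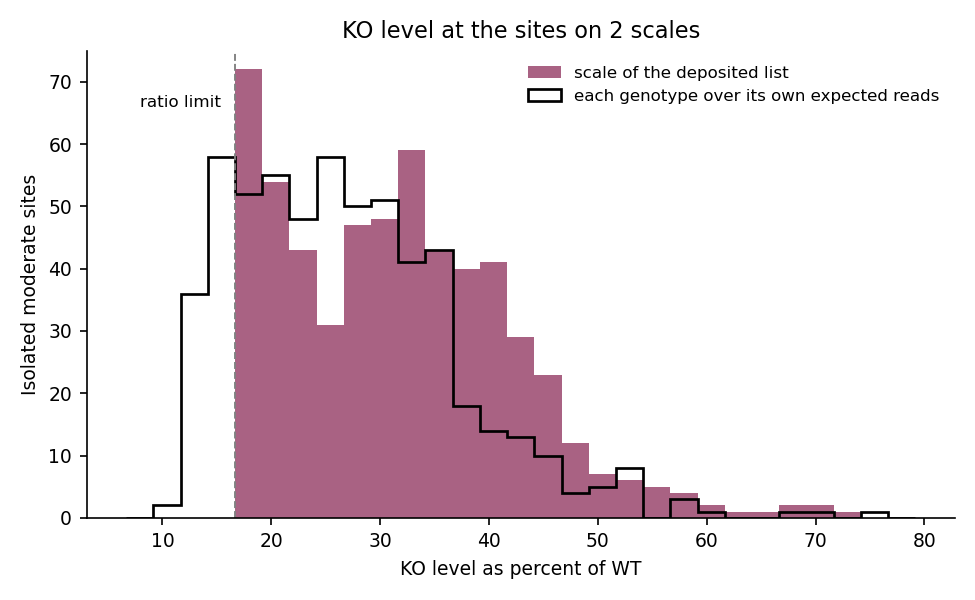
Number of the 573 sites (vertical) by KO level as percent of WT (horizontal), at the scale of the deposited list (filled) and with each genotype divided by its own expected reads on the same chromosome (outline). The medians are 31.3% and 26.0%, and the dashed line marks the ratio limit of 6, which applies to the filled distribution.

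How far the isolation reached beyond 5 kb differed among the sites. Of the 573 sites, 434 (75.7%, 72.0 to 79.2) had no other WT-higher H3K27ac event within 10 kb and 281 (49.04%, 44.9 to 53.2) had none within 50 kb. The other 139 (24.3%, 20.8 to 28.0) had another WT-higher H3K27ac event between 5 and 10 kb away, and 292 (51.0%, 46.8 to 55.1) had one within 50 kb in all. The median distance to the next WT-higher H3K27ac event was 46.3 kb, with quartiles of 10.3 and 503 kb. Sites thus fell into those in loose strings and those with nothing of the kind nearby. The nearest such event within 50 kb was another of the 573 sites in 184 of the 292 cases, a clustered event in 53, a strong event in 38 and an event beside another mark in 17. These classes hold 573, 570, 435 and 162 of the 1765 WT-higher events. The 5 kb condition also bears on which class is nearest, so the counts are a description. The sites that lay farthest from any WT-higher event were at 33561230 on chromosome 1 (17431 kb away), at 20170730 on chromosome 7 and at 12507844 on chromosome 5 (11958 kb). At the first of these KO had 117 scaled reads and WT 281 (41.6%, 33.0 to 52.2), and at that on chromosome 5 KO had 179 and WT 497 (36.1%, 30.1 to 43.1).

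Events higher in KO lay farther away, although the H3K27ac list of KO held 8323 events, 4.72 times as many as that of WT. The nearest H3K27ac event higher in KO was at a median of 502 kb (quartiles 242 and 1081), and 46 of the 573 sites (8.03%, 5.94 to 10.6) had one within 100 kb. The choice of sites had cleared KO-higher events to 10 kb but WT-higher ones only to 5 kb, so both were counted between 10 and 100 kb. In that band the 46 sites had a KO-higher H3K27ac event and 296 (51.7%, 47.5 to 55.8) a WT-higher one. The share with a KO-higher event in the band was 2.53% (1.27 to 4.48) for strong WT-higher events and 11.4% (8.91 to 14.3) for clustered moderate ones, whose distance to other lists was not limited. The 2818 isolated KO-higher sites also had events of their own direction close by, with a KO-higher event between 10 and 100 kb away at 74.98% (73.3 to 76.6) and a WT-higher one at 1.63% (1.20 to 2.17). The lists differ in length, which moves these shares, and that part was not tested.

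A few of the sites sat near KO-higher events. The closest was at 80886229 on chromosome 12, 12.9 kb from an H3K27ac event higher in KO and 11.5 kb from an H3K36me3 event higher in KO. It had 144 scaled reads in KO and 366 in WT, a KO level of 39.5% (32.1 to 48.2). The site at 36879919 on chromosome 19 was 14.8 kb from a KO-higher H3K27ac event, with 199 scaled reads in KO and 465 in WT (42.8%, 35.9 to 50.9). That at 99961776 on chromosome 11 was 19.7 kb away, with 120 scaled reads in KO and 334 in WT (36.02%, 28.8 to 44.8). These 3 were the only sites within 20 kb of a KO-higher H3K27ac event. The farthest from any were on chromosome 9, at 23179868 (8650 kb), 22644877 (8115 kb) and 22639345 (8109 kb).

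The promoter and gene-body marks around the sites also ran mostly towards WT. Within 100 kb, 10 sites (1.75%, 0.84 to 3.19) had an H3K4me3 event higher in KO and 161 (28.1%, 24.5 to 32.0) had one higher in WT. For H3K36me3, 13 sites (2.27%, 1.21 to 3.85) had an event higher in KO and 116 (20.2%, 17.0 to 23.8) one higher in WT. The KO-higher and WT-higher lists hold 738 and 5542 events for H3K4me3, and 1709 and 3341 for H3K36me3, so part of this balance lies in the lists. The same lean was present around other WT-higher events, counted between 10 and 100 kb, since the choice of sites left no event of these marks nearer than that. An H3K4me3 event higher in KO was there for 0.92% (0.25 to 2.34) of strong events and 2.98% (1.75 to 4.73) of clustered moderate ones, and one higher in WT for 29.0% (24.7 to 33.5) and 37.2% (33.2 to 41.3) of these classes. An H3K36me3 event higher in KO was there for 0 of the 435 strong events (upper limit 0.844%) and for 1.05% (0.39 to 2.28) of clustered ones, and one higher in WT for 27.1% (23.0 to 31.6) of strong and 40.5% (36.5 to 44.7) of clustered events. The nearest H3K4me3 event was at a median of 1474 kb for those higher in KO and 241 kb for those higher in WT, and the nearest H3K36me3 event at 1959 and 495 kb. Most of the 573 sites had no altered promoter mark of either direction within 100 kb.

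**Figure D3:**
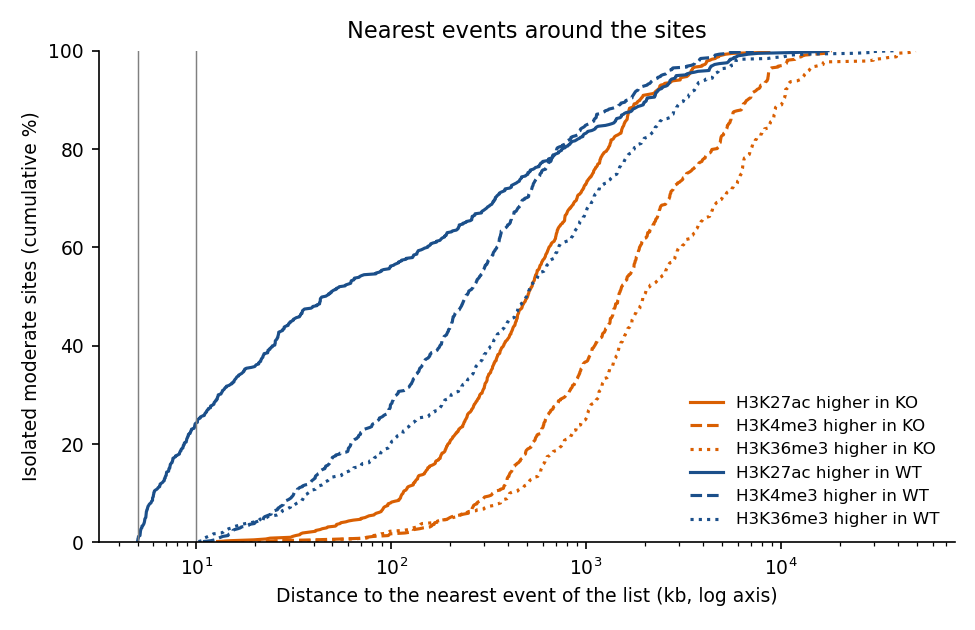
Cumulative share of the 573 sites (vertical) by distance to the nearest event of each list (horizontal, log axis), with lists higher in KO in orange and lists higher in WT in blue. Grey lines mark 5 and 10 kb, within which the choice of sites left no event of the same list and of the other lists. The median distance was 502 kb to an H3K27ac event higher in KO and 46.3 kb to another higher in WT.

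Sites close together had like KO levels. Over 53 pairs of consecutive sites 5 to 10 kb apart, Spearman's rho between the KO levels of the pair was 0.61, and the median pair differed 1.16-fold. Over 105 pairs 10 to 100 kb apart rho was 0.43, over 120 pairs 100 to 1000 kb apart 0.11, and over 276 pairs farther apart -0.03, where the median pair differed 1.42-fold. The WT reads of a pair, in contrast, had a rho of 0.24 at 5 to 10 kb, 0.05 at 10 to 100 kb, 0.30 at 100 to 1000 kb and 0.29 beyond. Without the stretch of chromosome 11 that held most sites, rho of the KO levels was 0.56 over 48 pairs and 0.41 over 99 pairs in the 2 nearest classes. With each genotype divided by its own expected reads, rho ran 0.74, 0.54, 0.25 and 0.13 from the nearest to the farthest class. On that scale both sites of a pair are multiplied by the same chromosome factor, which by itself can raise rho. Pairs share their libraries and their chromosome, and each site but the first and last of a chromosome is in 2 pairs, so these are descriptions.

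The KO level was lower near strong WT-higher events. The 89 sites with a strong event within 50 kb had medians of 63.4 scaled reads in KO and 291 in WT, a KO level of 20.4% of WT (quartiles 18.3 and 23.7). The 203 sites with only other WT-higher events in that range had 88.7 scaled reads in KO and 281 in WT, a KO level of 32.1% (26.2 and 39.0). The 281 lone sites, with no WT-higher event within 50 kb, had 91.9 scaled reads in KO and 282 in WT, a KO level of 33.6% (26.1 and 41.4). The KO median of the sites near strong events lay apart from those of the other 2 groups, which were close to each other, and the WT medians of all 3 groups were close. A KO level under 30% was seen at 80 of the 89 sites (89.9%, 81.7 to 95.3), at 81 of the 203 (39.9%, 33.1 to 47.0) and at 100 of the 281 (35.6%, 29.99 to 41.5). Of all WT-higher events 60.5% had such a level, but these include the 435 strong ones, which are under 30% by definition. Among the 1330 events under the ratio limit the share was 47.5% (44.8 to 50.2), among the 573 sites 45.5% (41.4 to 49.7) and among clustered moderate events 50.5% (46.3 to 54.7). The 89 sites fell into 51 strings of events. The intervals take sites as independent, which sites close together were not, so they may be too narrow. Without the largest string, 77 sites had a median KO level of 20.4%. The measure is the same that chose the sites, and no test is given.

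Joined at gaps of up to 50 kb, the WT-higher H3K27ac events of the autosomes formed 759 strings, of which 430 held at least 1 of the 573 sites. In 281 of these the site was alone, 89 held 2 sites or more, and 14 held 4 or more. In 55 strings of at least 2 events, all were isolated moderate sites. The 3 strings with most sites are given in turn.

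The string with most sites ran from 44980853 to 45357812 on chromosome 11, over 377 kb. It held 44 WT-higher events, of which 23 were strong, 8 clustered and 13 were isolated moderate sites. Summed over the 13, KO had 963 scaled reads and WT 4689, and their KO levels ran from 17.0% to 28.0% with a median of 20.3%. The tallest were at 45110104, with 120 scaled reads in KO and 592 in WT (20.3%, 16.4 to 24.9), at 45144920, with 124 in KO and 530.4 in WT (23.4%, 19.0 to 28.8), and at 45117556, with 93 in KO and 524 in WT (17.7%, 13.9 to 22.3). The site with the highest KO level, at 45069280, had 71.1 scaled reads in KO and 254 in WT (28.0%, 21.0 to 36.9). The intervals of all 13 overlapped. The 23 strong events of the string had lower KO levels, as the ratio limit that separates the classes requires. Most of the isolated sites lay in the earlier part of the string, and most of the strong events towards its end. The nearest KO-higher H3K27ac event lay 285 kb from the site at 45334211.

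**Figure D4:**
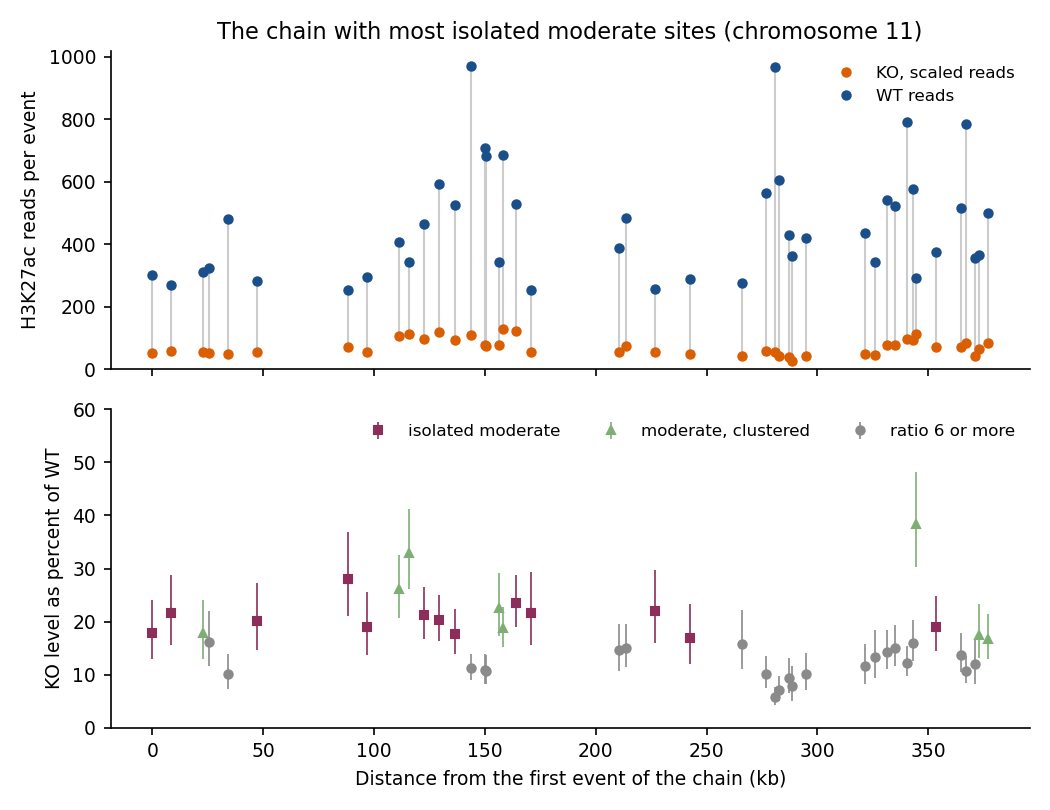
Events of the string of chromosome 11, by distance from its first event (horizontal, kb). The upper panel gives H3K27ac reads in KO (orange, scaled) and WT (blue), and the lower panel the KO level as percent of WT with its 95% counting interval. The 13 isolated moderate sites (squares) lie between 17.0% and 28.0%, and the 23 strong events (circles) lie below them, as the ratio limit between the classes requires.

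On chromosome 4, 6 sites followed each other from 114177660 to 114223517 with no other WT-higher event among them. Their sum was 610 scaled reads in KO and 1689 in WT. The KO levels differed within this string: at 114206935 KO had 88.7 scaled reads and WT 368 (24.1%, 18.7 to 30.7), and at 114212705, 5.77 kb away, KO had 142 and WT 250 (57.0%, 45.6 to 70.6). These 2 neighbours were picked for their difference. The other 4 sites lay between 32.4% and 41.1%. The nearest KO-higher H3K27ac event to any of the 6 was 1624 kb off.

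On chromosome 14, 6 sites lay among 20 events from 102128726 to 102346114, a string with 10 clustered and no strong events. The site at 102175243, among the 10 leading ones, had a KO level of 19.1%, and that at 102269224 had 114.5 scaled reads in KO and 211 in WT (54.2%, 42.6 to 69.1). Strings of a more even kind were found on chromosome 2, where 4 sites from 62347504 to 62383891 had KO levels of 31.0% to 37.4%. On chromosome 7, 4 sites from 103200943 to 103414307, among 12 strong events, had levels of 18.6% to 22.1%.

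The sites were spread over all 19 autosomes, with 50 on chromosome 6, 47 on chromosome 4, 45 on chromosome 10 and 43 on chromosome 9 at the upper end and 14 on chromosome 12, 10 on chromosome 19 and 8 on chromosome 17 at the lower. They made up between 21.7% (10.9 to 36.4) of the WT-higher H3K27ac events on chromosome 19 and 45.2% (27.3 to 64.0) on chromosome 12, and these intervals overlapped. The median KO level per chromosome lay between 27.8% and 36.2% of WT except on chromosome 11, where it was 21.6%. That chromosome held the string of 13 sites, and its other 12 sites had a median of 29.0%.

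On 18 of the 19 autosomes the median KO level was lower with each genotype divided by its own expected reads than at the scale of the list, and on chromosome 9 it was higher. The ratio of KO to WT expected reads there was 0.632 times that of the median chromosome, and on chromosome 12 it was 1.27 times. Expected reads have 1 value per chromosome and genotype, so the division multiplies every KO level of a chromosome by the same factor. The moves given here are that factor and hold no further reading of the sites. Over own expected reads, the median KO level of the 43 sites on chromosome 9 was 42.4% of WT (quartiles 32.9 and 47.9), against 33.3% at the scale of the list. On chromosome 12 the 14 sites had 19.6%, against 31.0%, the widest move of any autosome, and on chromosome 11 the 25 sites had 15.3%, against 21.6%. Over the 530 sites off chromosome 9 it was 25.1% (18.3 and 31.5), against 31.2%. Of the 573 sites, 554 (96.7%) stayed under 50% over own expected reads, where 97.2% of all WT-higher events did, and the highest value was 74.4%. Of the 19 sites over 50%, 9 were on chromosome 9. None of the 573 turned to a higher level in KO, and with these factors none could. These counts follow from the list levels and the factors, so they are no second support for the KO levels. What lies behind the difference in expected reads, and whether it enters the KO levels at the scale of the list, was not tested.

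**Figure D5:**
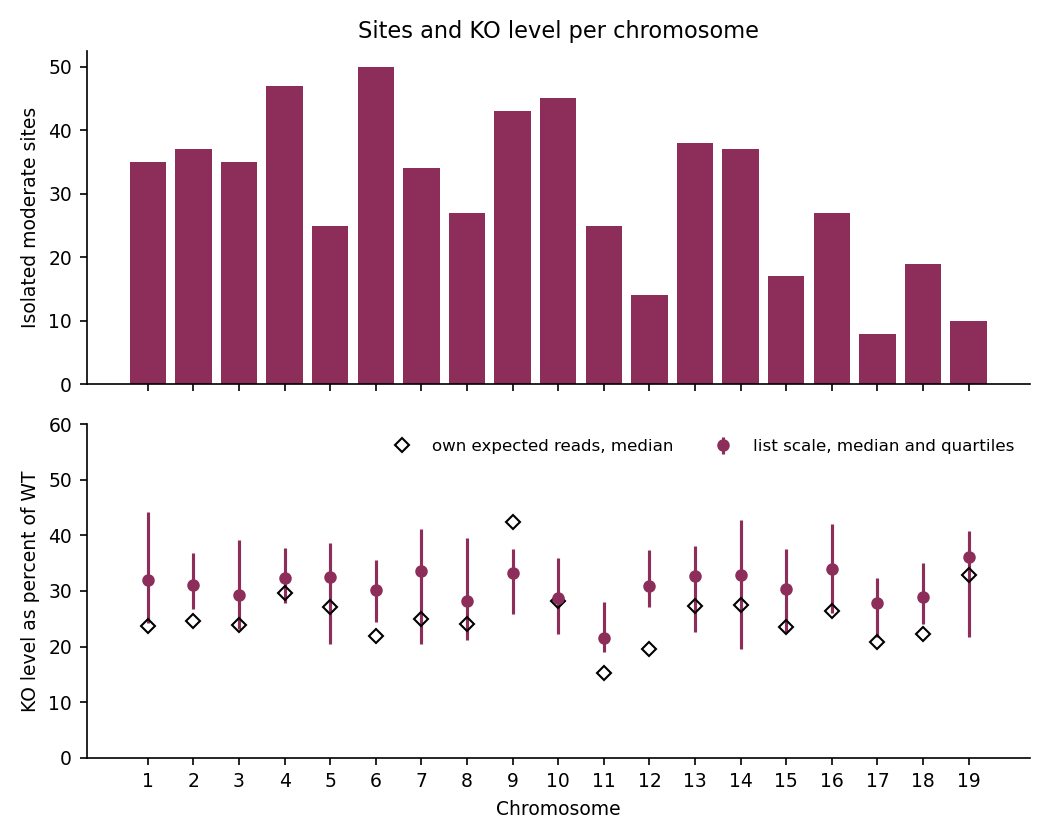
Number of isolated moderate sites per autosome (upper panel) and their KO level as percent of WT (lower panel), as median and quartiles at the scale of the list (filled) and as median over own expected reads (open). Chromosome 11 is low at 21.6% on the list scale, and chromosome 9 is the highest on the other scale at 42.4%.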

How the data were processed

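H3K27ac chromatin immunoprecipitation and sequencing was done in KO and WT cells, 1 labelled sample each. Genome build mm9 and TopHat 1.4, whose role is not stated, are named per the submitters' processing notes. The 6 deposited lists hold events of the programs GPS and GEM, per the file headers and names, with replicates of H3K27ac pooled. For the WT-higher list, the deposited estimated counts are the WT reads that the authors' program assigned to an event, and the deposited signal in the control column is the KO reads as scaled by the authors. The deposited ratio is WT over KO, and the −log10 q and p values are the authors'. The shape scores in the deposited files were not used.

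The scaling factor of KO, 1.09, was recovered as the step that made most control values whole multiples (93.4% of 1100, within 0.06). In the KO-higher H3K27ac list the factor of WT, recovered likewise, was 0.85 (88.8% whole multiples). These factors are not reciprocal, so the H3K27ac lists differ in scale. The KO level is scaled KO reads as percent of WT reads, with an exact conditional binomial interval of the unscaled reads, and shares have exact Clopper-Pearson intervals, all at 95%. They take reads and events as independent, which reads lacking molecular identifiers and sites close together need not be. The factor search, distances and intervals were checked on simulated data. Tools were SciPy 1.17.1, NumPy 2.4.6, matplotlib 3.10.9, pandas 2.3.3 and Python 3.11.15. Sites named are the 10 with the largest −log10 q, the 5 with most WT reads, the 5 lowest and 5 highest KO levels at 200 WT reads or more, the 3 nearest to and 3 farthest from KO-higher events, and those at the limits. Sites in strings, those farthest from WT-higher events and those with KO reads over expectation were picked after their values were seen. The members and lists were chosen with earlier results of these data known. Gene lists, gene position and sequence motifs were not run for want of a reference in mm9.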

Additional observations from a re-analysis of the deposited data

How the results depend on the processing

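No paired analysis was possible because each genotype has 1 pooled value, which also prevents leaving out a replicate. A median counted as unmoved when it stayed in the 95% binomial interval of the median over sites. With −log10 q no lower than 10 the 573 sites became 281 and, in an alternative chosen after seeing the data, also 281 at 50 kb from the same list, and the other 11 alternatives gave 397 to 777. The median KO level of 31.3% of WT moved to 35.3% with ratios below 4, 29.0% below 8, 32.3% at 10 kb and 33.6% at 50 kb from the same list. It moved to 26.0% over own expected reads and 27.1% over median expected reads. The median of 283 WT reads moved to 302 with −log10 q no lower than 5, to 327 no lower than 10, to 292 at 2 kb and to 275 at 10 kb from the same list. The share of sites with a KO-higher H3K27ac event nearby was 3.14% within 50 kb and 20.4% within 200 kb. Of these, the ratio limits, windows and stricter thresholds act by construction, and the expected reads act by rescaling. The median distance to a KO-higher H3K27ac event had 1 alternative, in which only KO-higher events with −log10 q no lower than 5 were kept. The shares on chromosomes 6, 9 and 12 had 1 alternative each, in which only sites with −log10 q no lower than 5 were kept. The distance and the shares stayed within their intervals. Position relative to genes and sequence windows were not run. Library depth is unknown, and the sites with fewest reads, 24.1 scaled reads in KO and 132 in WT, are the least certain.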
